A study of Mus musculus with 8 samples.

Results

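The regions described here are N6-methyladenosine (m6A) peaks that were listed in both Alkbh5 knockout peak lists of mouse spermatogenic cells and in neither wild-type list. They were chosen by the authors' peak positions: a peak of the knockout PA list was taken when its exon blocks overlapped a knockout RO peak by 1 bp or more on the same chromosome and strand, and overlapped no peak of either wild-type list. The rule took 1225 of the 9931 peaks of the knockout PA list, or 12.3%, with a Wilson 95% interval of 11.7 to 13.0%. The 4 lists hold 35697 peaks in all. The 1225 peaks lay in 1126 of the 6084 genes with a knockout PA peak, which is 18.5% of them.

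m6A is a methyl mark on adenosine inside RNA, most often in a sequence with the core GGAC, and in many transcripts it gathers near the stop codon. A writer complex built around the methyltransferase Mettl3 adds it, YTH-domain proteins read it, and the demethylase Alkbh5 removes it. Alkbh5 is abundant in testis, where spermatocytes go through meiosis and round spermatids then begin to build the sperm head and tail while the sex chromosomes are transcriptionally restrained.

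The study set Alkbh5-/- mice beside wild-type mice of the C57BL/6 strain, all 12 weeks old, and took PA and RO cells, labelled as pachytene spermatocytes and round spermatids, from the testes. RNA was cut to fragments of 100 to 200 nt, and a polyclonal m6A antibody enriched the methylated ones. Each of the 4 combinations of genotype and fraction has 1 input library and 1 immunoprecipitated library, 8 samples in all, so no difference between genotypes has a replicate check and no test was run. Intervals below cover counting error only. Gene counts were used for the 4 inputs, which totalled 9921365 counts in knockout PA, 10152198 in knockout RO, 13147239 in wild-type PA and 12084838 in wild-type RO. Counts of Alkbh5 itself were not analysed here, so the genotype labels were not checked on it. The genotype label names no driver or tissue for the deletion, and fractions taken from 2 genotypes may hold different mixtures of cells.

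The mixture was read from marker genes. The spermatocyte markers Sycp1 and Sycp2 summed to 2136 CPM, which are counts after scaling for library size, in wild-type PA and 1883 in wild-type RO, against 1165 and 1364 in the knockout fractions. The sum of these 2 markers was thus lower in RO than in PA in the wild type, and higher in RO in the knockout. What cell share this stands for was not tested. Of the 4 round-spermatid markers Acrv1, Tnp2, Prm2 and Acr, Prm2 was higher in the knockout and Acr lower. Their log2 ratios of knockout over wild type were 1.23 in PA and 1.68 in RO for Prm2, and -0.48 and -0.61 for Acr. All 4 summed to 328 (knockout PA), 593 (knockout RO), 193 (wild-type PA) and 335 (wild-type RO). Of the somatic cells, the 4 endothelial markers stood at 137, 145, 110 and 40.6, the 4 Sertoli markers at 318, 198, 239 and 172, the 2 Leydig markers at 40.0, 16.7, 136 and 41.5, the peritubular muscle marker Myh11 at 272, 226, 285 and 143, and the macrophage marker Csf1r at 12.3, 21.5, 2.13 and 6.86 in the same order. Only markers whose symbol occurs in a peak list could be read. These were 2 of 5 listed for Leydig, 4 of 6 for Sertoli and 1 of 3 each for muscle and macrophage. For spermatocytes they were 2 of 6, for round spermatids 4 of 8 and for spermatogonia 3 of 5. None of those read was at 0 in any library, but a gene with a peak is transcribed somewhere, so this says little about the mixture. The 3 spermatogonial markers, of which Zbtb16 held a member peak, summed to 60.4, 42.4, 30.5 and 23.5. Fewer cells of a type and less RNA per cell cannot be told apart in these bulk samples, and the part of the mixture in the results was not tested.

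Letters could be read only for members that reach a RefSeq transcription start window, which runs from 250 bases before to 50 bases after a start (GRCm38.p6, mm10 coordinates). Of the 36 members touching such a window, 27 shared 30 bases or more with it, and 10 of these 27 stretches held GGAC on the transcript strand (37.0%, Wilson interval 21.5 to 55.8%). The stretches below show the m6A core in members of different classes. Each is 30 bases long and written 5′ to 3′ on the transcript strand, with GGAC in capitals.
Fam50b, coding sequence, chr13:34739638-34739667, plus strand: acctgcttggaaaGGACatgagggcaatgg
Ccdc105, coding sequence, chr10:78753018-78753047, minus strand: agtggtgtgtggttagggctgggtGGACcc
Tcp11x2, coding sequence, chrX:135693741-135693770, minus strand: acggggaaaggcagtcaaacacccaGGACc
Ep300, 5′ untranslated region, chr15:81586210-81586239, plus strand: atgagaaggaggaGGACagcgccgaggagg
Chml, other exon, chr1:175688304-175688333, minus strand: agagtttgatgtggtaataatagGGACagg
In the other knockout PA peaks, 67 of 152 such stretches held GGAC (44.1%), and the last 50 bases of all 32619 windows held it in 19.0%. The longer GGACT was found in 1 of the 27 member stretches, against 27 of 152 stretches of other knockout PA peaks (17.8%) and 5.80% of the windows. These stretches lie at gene starts and stand for few of the members, and a match of letters does not show a methylated base.

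The knockout pair shared more list-restricted peaks than any other pair of lists. Counted in the wild-type PA list, 364 of 7502 peaks (4.85%) overlapped a wild-type RO peak and no knockout peak. The 2 PA lists shared 400 peaks of the knockout PA list with no RO list (4.03%), and the 2 RO lists shared 313 of 8846 knockout RO peaks with no PA list (3.54%). For knockout PA with wild-type RO the number was 493 (4.96%), and for wild-type PA with knockout RO it was 163 of 7502 (2.17%). Counted from the other side, 1251 of the 8846 knockout RO peaks met the rule (14.1%).

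**Figure D1:**
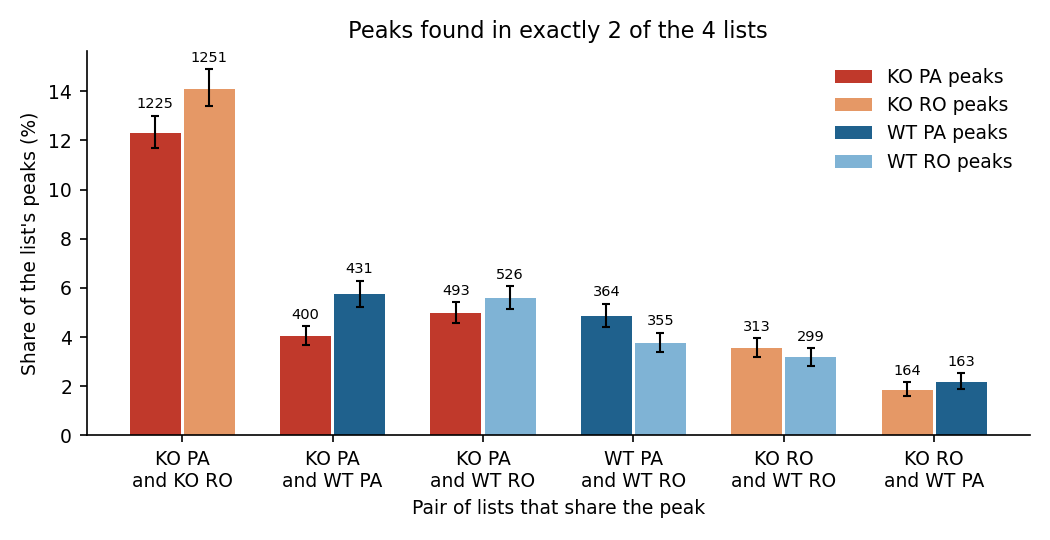
Share of each list's peaks (%, vertical axis) that overlap a peak of exactly 1 other list, for the 6 pairs of lists, with the list that was counted shown by colour. Bars carry Wilson 95% intervals for counting error and the number of peaks; the knockout pair stands at 12.3 and 14.1%, above the 4.85% of the wild-type PA list for the wild-type pair.

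The lists themselves differ in how finely they resolve enrichment, and this moved with genotype. Many of the authors' fold values lie on a grid within each list: 44.2% of the knockout PA folds under 10 were whole multiples of 0.376 within 0.0051. Even spacing would give 2.71%, but that is not a chance level for this share. The step of each list was fitted to its own commonest folds under 10, which are counted in the share and are multiples by construction. The step was 0.582 in knockout RO, 1.05 in wild-type PA and 1.35 in wild-type RO, so that it was 2.80 times as large in the wild type in PA and 2.31 times in RO. The median fold of all peaks came to 34.6 steps in knockout PA and 20.8 in knockout RO, against 11.1 in wild-type PA and 11.2 in wild-type RO. The median member fold, at 27.9 steps in knockout PA and 15.6 in knockout RO, was below the median of its own list in each. The headers do not say what a step stands for. The part of this difference in the number of knockout-restricted peaks was not tested, and neither was that of the unequal lengths of the lists.

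Members had no overlap with a wild-type peak, but many lay near one or in a gene that had one. The nearest wild-type peak on the same strand was a median of 17741 bp away, and 155 members (12.7%) had one within 200 bp and 376 (30.7%) within 1 kb. Of the 1126 member genes, 560 held a wild-type peak elsewhere in the gene, which was in both wild-type lists for 355, in wild-type PA alone for 88 and in wild-type RO alone for 117. The remaining 566 genes (50.3%), with 593 member peaks, had no wild-type peak. A gene with a wild-type peak was thus behind 51.6% of the members and 90.8% of the other knockout PA peaks, a contrast that the rule partly fixes because many of the latter overlap a wild-type peak. Among the peaks of the knockout PA list alone, which overlap none either, it was 54.0% (51.7 to 56.4%). In 610 of the member genes, the members were the only knockout PA peaks.

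The 2 knockout lists gave similar intervals. Each of 1188 members overlapped a single knockout RO peak, and 1207 knockout RO peaks were met in all. The median overlap was 180 bp, with a median of 0.716 for the overlap divided by the union, and 1057 members overlapped by at least 50% of both peaks. The blocks were identical in 150 pairs, the feature class was the same in 1174 and the gene in 1218. Only 29 members rested on an overlap under 50 bp. At the inner edge of the rule, the peaks in Mrm2, a mitochondrial rRNA methyltransferase gene, and Homez, a homeobox gene, overlapped their knockout RO peak by 1 bp. At the outer edge, a 240 bp peak in AC155714.1 with a fold of 13.7 and a 121 bp peak in Peak1, a pseudokinase gene, with a fold of 4.51 were kept out by 1 bp of a wild-type RO peak. Under 30 bp of wild-type overlap kept out 36 of the 5727 knockout PA peaks that overlapped a knockout RO peak but were not members.

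By class, the members had a smaller coding share and a larger 3′ share than other knockout PA peaks. Coding sequence held 584 members, or 47.7% (44.9 to 50.5%), against 56.2% (55.2 to 57.3%) of the 8706 other knockout PA peaks, 61.9% of the 3752 knockout PA peaks that overlapped all other lists and 53.4% of the 1730 found in the knockout PA list alone. The 3′ untranslated region held 338 members, or 27.6% (25.2 to 30.2%), against 21.0% (20.2 to 21.9%), 19.3% and 19.4%. The 5′ untranslated region held 51 members (4.16%), against 3.63% of the other peaks, and other exons held 250 (20.4%), against 19.0%. Protein-coding genes carried 1084 members (88.5%), lincRNAs 35 and processed pseudogenes 44 (3.59%, against 2.19% of other knockout PA peaks). The mix also differed inside the set: in genes with a wild-type peak elsewhere, 54.9% of the members were coding and 14.4% in other exons, and in genes without one, 40.0% and 26.8%.

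The members were narrower and less enriched than most of the list. Their exonic width had a median of 211 bp with quartiles of 180 and 270 bp, against 270 bp for the other knockout PA peaks, 390 bp for those in all 4 lists and 180 bp for those in the knockout PA list alone. The fold had a median of 10.5, with quartiles of 6.77 and 17.7 and a range of 1.43 to 136. It was 13.5 for other knockout PA peaks, 22.9 for those in all lists and 8.27 for those in knockout PA alone, so the members lay between the last groups. Wide peaks have more room to meet a wild-type peak, so the rule itself bears on width. Members were 18.0% of knockout PA peaks under 200 bp, 15.6% from 200 to 300 bp, 8.26% from 300 to 500 bp and 2.22% from 500 bp. Within these width bins the 3′ share of members and other peaks was 30.1 and 23.0%, 29.0 and 24.8%, 21.3 and 20.8%, and 8.57 and 12.2%, so the higher 3′ share was seen below 300 bp and not from 500 bp, where 35 members lie. The coding share was 42.5 and 48.0%, 46.5 and 49.4%, 59.9 and 61.6%, and 68.6 and 72.1%, so its gap within each bin was smaller than over all widths.

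**Figure D2:**
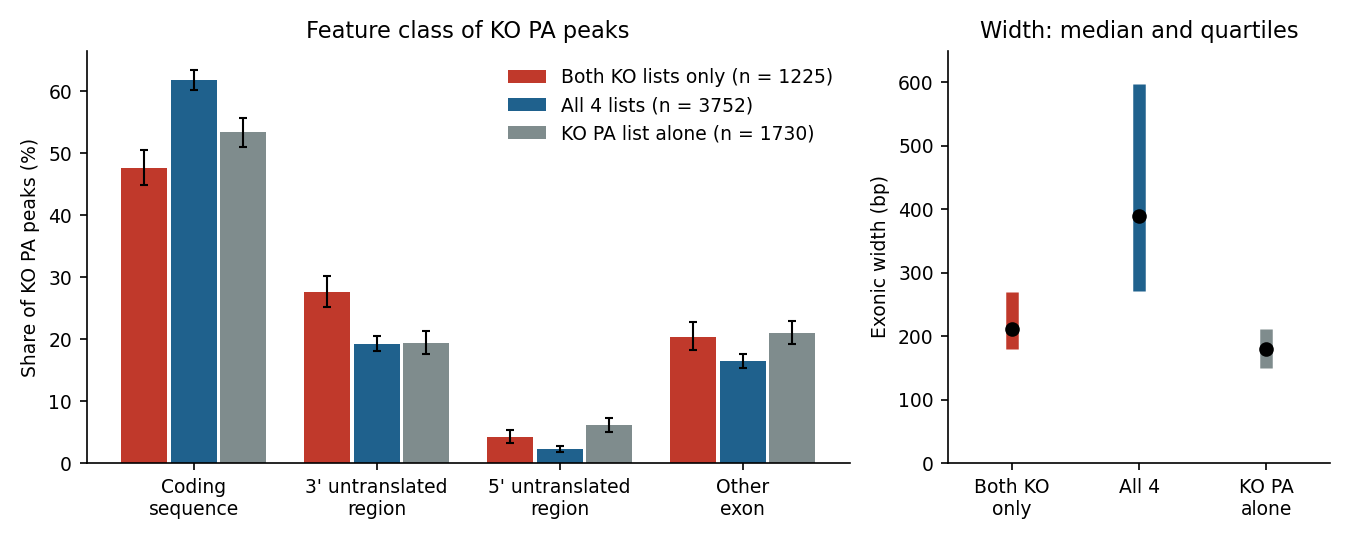
Left, share of knockout PA peaks (%) in each feature class for peaks in both knockout lists only, in all 4 lists and in the knockout PA list alone, with Wilson 95% intervals for counting error. Right, exonic width (bp) of the same groups, with the median as a point and the quartiles as the ends of a bar; medians are 211, 390 and 180 bp.

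Enrichment in one fraction carried over loosely to the other. Across members, which share libraries within a list and are not replicates, the Spearman rho between the folds was 0.39 and the Pearson r of their log2 values 0.42. The folds are the authors' own and may follow the depth of the libraries behind each list, so whether a peak was higher in PA or in RO was not read from them. A false discovery rate under 0.05 in both lists was reached by 1164 members, and a fold of at least 5 in both by 830.

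**Figure D3:**
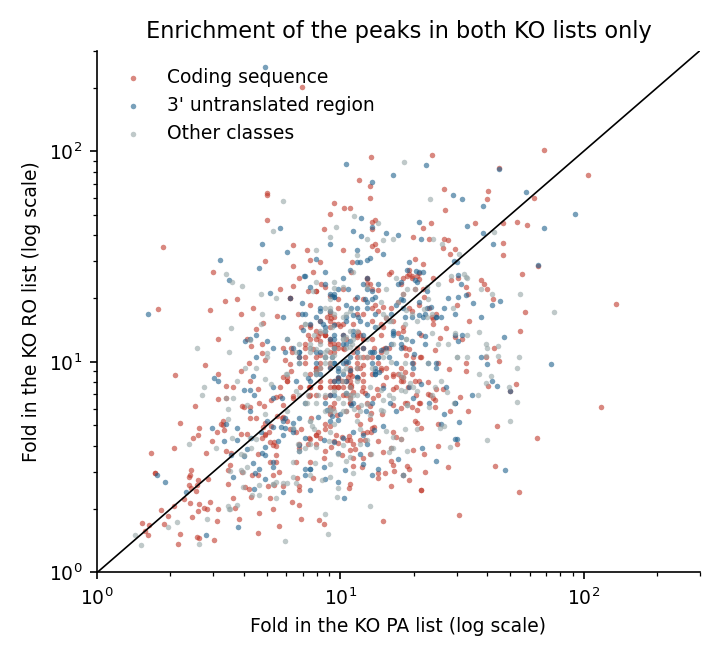
Authors' fold of immunoprecipitated over input library for each of the 1225 peaks in both knockout lists only, in the knockout PA list (horizontal) and the knockout RO list (vertical), both on log scales, coloured by feature class. The line marks equal values and is drawn for orientation, since the lists have different fold steps; the points scatter widely, with a rho of 0.39.

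The strongest peaks, ranked by the lower of the 2 folds, fell in genes of varied function. The first was in Pclo, which encodes a scaffold of the presynaptic active zone: a coding peak of 300 bp at chr5:14669415-14674993 had a fold of 104 in knockout PA and 76.9 in knockout RO. Input CPM of Pclo was 47.1 in knockout PA and 28.8 in wild-type PA, 1.63-fold (95% interval 1.42 to 1.88), and 42.2 and 33.4 in RO, 1.26-fold (1.10 to 1.45). Its nearest wild-type peak was 119 bp away. The coding peak of 2900026A02Rik at chr5:113190874-113191264 had folds of 68.4 and 101, with input CPM of 34.3 and 31.5 in PA and 31.4 and 30.7 in RO, so the genotypes were within 1.09-fold of each other.

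Peaks in 2 genes of vascular and stromal signalling stood high with inputs that differed between genotypes in RO. Flt1, a receptor of vascular endothelial growth factor, had a coding peak with folds of 62.3 and 60.0 and no wild-type peak nearer than 620600 bp. Its input CPM was 52.0 in knockout PA, 28.2 in wild-type PA, 47.7 in knockout RO and 10.5 in wild-type RO, the last pair 4.54-fold apart (3.72 to 5.58). The summed endothelial markers were lowest in wild-type RO too, as given above. Cxcl12, a chemokine gene, had a 3′ peak with folds of 44.7 and 82.7, 268 bp from a wild-type peak. Its CPM was 76.5, 59.6, 78.5 and 15.3 in the same order, 1.28-fold higher in knockout PA and 5.14-fold in knockout RO (4.36 to 6.07).

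Others among the 10 strongest had genotype ratios closer to 1 in PA. Mki67, the Ki-67 proliferation antigen, had a 3′ peak with folds of 91.7 and 50.1; its CPM was 478 in knockout PA and 475 in wild-type PA, then 595 in knockout RO and 396 in wild-type RO. Chd6, a chromatin remodeller, had a coding peak with folds of 46.6 and 45.4, and its CPM was 233, 221, 240 and 138 in that order. Xiap, an inhibitor of caspases on the X chromosome, had a coding peak with folds of 44.9 and 83.3 and CPM of 33.8, 29.6, 25.4 and 13.5. Pcmtd1 had a coding peak with folds of 53.0 and 46.0 and CPM of 44.3, 43.7, 40.7 and 21.8. In all 4 genes the wild-type RO library was the lowest.

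The other 2 members of that rank were in weakly counted genes. Kcng2, a modifier subunit of potassium channels, had a coding peak with folds of 58.3 and 44.8 and input counts of 49 in knockout PA, 42 in wild-type PA, 46 in knockout RO and 0 in wild-type RO. Against a floor of 3 counts in that library, the RO input was at least 16.1-fold higher in the knockout. Arrdc4, an arrestin-domain gene, had a 3′ peak with folds of 57.9 and 64.1. Its counts were 45 in knockout PA, 100 in wild-type PA, 107 in knockout RO and 40 in wild-type RO, so the genotype ratio ran in opposite directions in the fractions.

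Strong members also occurred where the gene's input was steady, meaning a log2 ratio within 0.5 of 0 in both fractions and at least 10 CPM in all 4 inputs. Such genes held 325 members, 26.5% of all. After 2900026A02Rik the strongest were in Smpd3, a neutral sphingomyelinase, with folds of 40.6 and 64.7, and in Hk2, a hexokinase, with 38.5 and 40.8. The Smpd3 input was 13.1 CPM in knockout PA and 12.2 in wild-type PA, then 30.5 in knockout RO and 31.4 in wild-type RO. Hk2 stood at 95.3 and 95.6, then 80.6 and 72.9. These genotype pairs were within 1.11-fold of each other. Aak1, a kinase of clathrin adaptors (folds 31.6 and 59.4), the retinoid receptor Rxra (29.0 and 62.3) and the lipase maturation factor Lmf2 (28.2 and 32.5) followed. Steady input did not go with a larger member share: 325 of the 3191 knockout PA peaks in steady genes were members, or 10.2% (9.18 to 11.3%), against 12.3% of the whole list.

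Most genes held 1 member peak, 76 held 2, 6 held 3 and 3 held 4 or more. Amer2, which binds the Wnt regulator APC, had 6 listed members among its 11 knockout PA peaks, but these include overlapping intervals, with folds from 5.14 to 19.2. Pclo had 4 members, all coding, with knockout PA folds of 5.89, 7.90, 20.7 and 104. Stard9, a kinesin gene, had 4 coding members among 13 knockout PA peaks, with low folds of 2.40 to 6.02 and an input of 536 CPM in knockout PA against 544 in wild-type PA. The widest members were coding peaks of 1438 bp in 4930407I10Rik, 1079 bp in the caldesmon gene Cald1 and 931 bp in the centriolin gene Cntrl, the last split over 5 exon blocks.

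Some intervals stand in the knockout PA list on both strands. Of the members, 59 (4.82%) overlapped a knockout PA peak on the opposite strand, and 19 of these had the same fold on both. For all knockout PA peaks the numbers were 408 (4.11%) and 110. One such interval, chr1:58017638-58017848, is a coding member in Sgo2a on the plus strand and a 5′ member in Kctd18 on the minus strand, with folds of 18.0 and 8.45 in both. The strand of such a peak is not settled by the list.

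Gene groups were compared with the 18.5% of genes with a knockout PA peak that held a member. Among the m6A machinery, 2 of 5 writer genes held one, Zc3h13 (coding, folds 18.4 and 8.93) and Rbm15 (other exon, 6.02 and 5.82), and none of 6 readers and of 1 eraser did. Zc3h13 input was 573 CPM in knockout PA and 324 in wild-type PA, 1.77-fold, and 687 and 270 in RO, 2.54-fold (2.44 to 2.65). Rbm15 stood at 154 and 158 CPM in PA and 144 and 148 in RO. The writer genes thus differed in input, and both carried a wild-type peak elsewhere.

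Genes of meiotic recombination and synapsis held members in 5 of 14 (35.7%, 16.3 to 61.2%): Brca2, of homologous recombination, Mdc1, of the DNA damage response, the meiotic prophase gene Meioc, Sgo2a, which protects centromeric cohesion, and Tex15, needed for meiosis in males. All 7 peaks were coding and each gene also had a wild-type peak. The Brca2 peak had folds of 11.0 and 26.8, lay 148 bp from a wild-type peak and was 1 of 12 knockout PA peaks of the gene, whose input was 239 CPM in knockout PA, 233 in wild-type PA, 264 in knockout RO and 191 in wild-type RO. The interval of the share includes 18.5%.

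Genes of spermatid differentiation held members in 4 of 19 (21.1%), which is near the background, and 2 of the 4 were at least 2-fold higher in the knockout inputs of both fractions, a call made for 8.70% of all genes and 6.75% of member genes. Cylc1, a protein of the sperm-head cytoskeleton, had a 715 bp coding peak with folds of 18.9 and 7.57 and no wild-type peak; its CPM was 34.9 in knockout PA and 1.70 in wild-type PA, 20.5-fold (13.1 to 34.0), and 67.8 and 4.00 in RO, 17.0-fold (12.6 to 23.4). Hspa1l, a testis heat-shock protein, had 60.6 and 9.29 CPM in PA, 6.52-fold, and 138 and 26.2 in RO, 5.26-fold. Actl7b and Prm3 were the others. In the histone list 4 of 7 genes held a member (57.1%, 25.0 to 84.2%). This interval lies above 18.5%, but it rests on few genes. Of the 4, 2 were at least 2-fold higher in both fractions, beside the same 8.70% of all genes. H1fnt, the linker histone of spermatids, stood at 114 CPM in knockout PA and 10.1 in wild-type PA, 11.3-fold, and at 153 and 33.1 in RO, 4.62-fold. It had a coding peak with folds of 19.7 and 6.10. The summed round-spermatid markers were also higher in the knockout fractions, as given above. Among them Prm2 was higher there and Acr lower, so the markers did not move together. Their part in these peaks was not tested.

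No member was found in the 4 piRNA-pathway genes with a knockout PA peak. Among larger groups, adhesion and extracellular matrix genes held members in 21 of 83 (25.3%, 17.2 to 35.6%), and 11 of these 21 genes had no wild-type peak. They included the collagen gene Col2a1 (folds 17.7 and 23.3, input 26.7 and 26.5 CPM in PA) and the integrin gene Itga8 (16.5 and 77.5). Chromatin modifiers held members in 21 of 95 (22.1%), with Arid1b, of a nucleosome remodelling complex, at folds of 22.0 and 20.4. RNA helicases and splicing factors held them in 15 of 72 (20.8%), motor proteins in 9 of 43 (20.9%), genes matched as protein kinases in 15 of 74 (20.3%) and as phosphatases in 15 of 76 (19.7%).

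Other groups stood at or below the background. Genes matched as zinc finger genes held members in 45 of 249 (18.1%, 13.8 to 23.3%), with 36 of 51 peaks coding; Zbtb38 had folds of 26.3 and 34.9. Cilium and centrosome genes stood at 23 of 128 (18.0%), Gm-numbered transcripts at 98 of 578 (17.0%), small GTPase regulators at 14 of 97 (14.4%), BTB and Kelch genes at 5 of 37 (13.5%) and solute carriers at 10 of 74 (13.5%). The lowest share of a large group was that of ubiquitin ligases and deubiquitinases, 17 of 151 (11.3%, 7.15 to 17.3%), among them Trim2 with folds of 35.7 and 45.4. No group was called apart from the rest: the groups were matched by symbol, and no test was made.

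Input counts were then set beside the peaks to see how far they move with them. The member genes were a little higher in the knockout inputs than the other genes with a knockout PA peak. Of the 1101 member genes that reached 1 CPM in knockout or wild-type PA, 173 (15.7%, 13.7 to 18.0%) were at least 2-fold higher in the knockout and 86 (7.81%) at least 2-fold lower, with a median log2 ratio of 0.09. Among other genes with a knockout PA peak the shares were 10.6% and 12.7%, with a median of -0.07. In RO, 189 of 1103 member genes (17.1%, 15.0 to 19.5%) were higher and 83 (7.52%) lower, with a median of 0.10, against 11.2%, 11.7% and -0.05. The genes with a peak in the knockout PA list alone lay closer to the members: 12.9% were higher and 12.4% lower in PA, with a median of -0.04, and 15.4% and 8.70% in RO, with a median of 0.05. In both fractions at once 6.22% of them were higher and 4.57% lower.

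Read against all genes, the members' share with higher input depends on the level of the genes compared. Over all genes kept, 23.8% were 2-fold higher and 19.9% lower in knockout PA, and 23.0% and 19.0% in RO; this background is rich in weakly counted genes, most of which have no peak. Among genes that reached 10 CPM in the knockout or the wild type, the background was 13.3% higher and 13.0% lower in PA and 11.8% and 12.9% in RO. Member genes then stood at 13.2% and 6.24% in PA and 14.3% and 6.57% in RO. Their higher share was thus near the background in PA and above it in RO, where its interval is 12.2 to 16.7%. Their lower share was below it in both. At this level, other genes with a knockout PA peak stood at 9.24% and 11.5% in PA and 9.08% and 11.1% in RO. Against these genes the members' higher share was larger in both fractions, with an interval of 11.2 to 15.5% in PA. In both fractions at once, at any level kept, 74 of 1096 member genes (6.75%, 5.41 to 8.39%) were higher and 33 (3.01%) lower. All genes kept stood at 8.70% and 6.89%, and other genes with a knockout PA peak at 3.92% and 5.85%. The members' share higher in both fractions was thus below that of all genes and above that of other genes with a knockout PA peak. A log2 ratio within 0.5 of 0 in both fractions was found for 324 member genes (29.6%), at any level kept.

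Scaling by total counts in place of TMM factors moved the medians of all genes from 0.04 to 0.32 in PA and to 0.22 in RO, and the members' higher and lower shares to 23.3% and 5.0% in PA and 20.8% and 5.53% in RO. With that scaling all genes kept stood at 29.7% and 15.6% in PA and 26.2% and 16.2% in RO. Other genes with a knockout PA peak stood at 17.1% and 7.94% in PA and 14.5% and 8.46% in RO.

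The higher inputs were more frequent in the 566 member genes without any wild-type peak. There 20.8% were 2-fold higher in knockout PA and 9.51% lower, and 20.3% and 8.76% in RO, with a median log2 ratio of 0.15 in both fractions. These genes were also weakly counted, at a median of 18.7 CPM in knockout PA and 15.6 in wild-type PA, and 20.4 and 16.9 in RO. Member genes with a wild-type peak elsewhere had medians of 57.9, 54.5, 52.9 and 48.7 CPM, and 10.6% were higher and 6.14% lower in PA. Other genes with a knockout PA peak had 37.3 and 37.8 CPM in PA.

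The share of knockout PA peaks that met the rule moved with both input measures. It was 8.04% in genes whose mean log2 ratio was below -1, then 9.62%, 10.9%, 12.4% and 15.0% in the bins between, and 21.3% in genes at 1 or above. In genes at least 2-fold higher in the knockout in both fractions it was 23.0% (88 of 383), and in genes 2-fold lower in both it was 7.34% (34 of 463). By wild-type input it was 17.9% under 1 CPM, 19.7% at 3 to 10, 15.4% at 10 to 30, 10.7% at 30 to 100 and 8.73% from 100 CPM. By knockout PA fold it was 16.1% below 5 and 4.24% at 40 or above, and among steady genes alone 16.7% and 1.89%. These are descriptions of how the rule sorts the list: genotype ratio, input level and fold overlap among themselves.

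**Figure D4:**
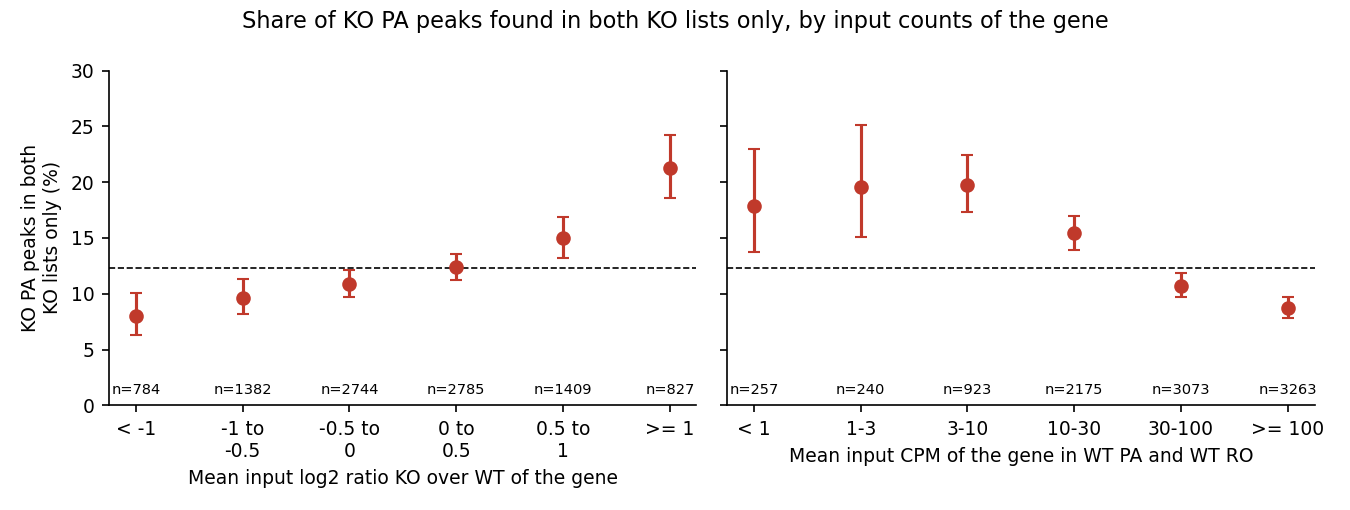
Share of knockout PA peaks (%) that lie in both knockout lists only, by the mean input log2 ratio of knockout over wild type of the gene in PA and RO (left) and by its mean wild-type CPM (right), with Wilson 95% intervals for counting error and the number of peaks in each bin. The dashed line is the 12.3% of the whole list; the share goes from 8.04 to 21.3% along the left axis and is 8.73% at 100 CPM or more on the right.

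The ends of the genotype ratio show what input change can look like at a member. Gm8232 had 379 counts in knockout PA and 0 in wild-type PA, at least 137-fold against a floor of 3 counts, and 381 and 61 in RO, 6.56-fold. The processed pseudogene Gm4994 had 236 and 2 counts in PA, at least 85.3-fold against that floor, and 147 and 38 in RO; reads of a pseudogene may come from its parent gene, so its value is uncertain. Sema4d, a semaphorin, had 113 and 17 counts in PA, 7.21-fold (4.31 to 12.8), and 78 and 2 in RO. At the other end, members were listed although the knockout input was lower: the phosphatase gene Dusp15 had 40.2 CPM in knockout PA and 141 in wild-type PA, and 33.1 and 156 in RO. Dvl1, of Wnt signalling, had 134 and 630 CPM in PA and 182 and 621 in RO, and its peak had folds of 7.14 and 3.91. The antisense transcript Gm16845 had 13 counts in knockout RO and 191 in wild-type RO, and the fibrillin gene Fbn2 had 116 and 380 CPM in PA.

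**Figure D5:**
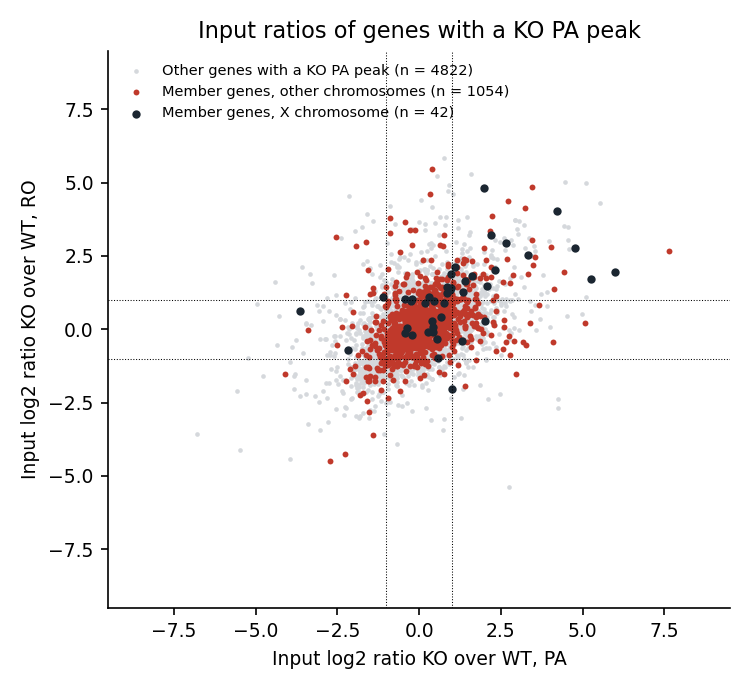
Input log2 ratio of knockout over wild type in PA (horizontal) and RO (vertical) for each gene with a knockout PA peak that reached 1 CPM in a library of each fraction. Grey points are genes without a member, red points member genes and black points member genes on the X chromosome; dotted lines mark 2-fold. 74 of 1096 member genes lie 2-fold higher in both fractions and 33 lower.

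Members were more frequent on the X chromosome than most knockout PA peaks. It held 50 of them, 4.08% (3.11 to 5.34%), against 2.15% (1.86 to 2.47%) of other knockout PA peaks and 1.28% of those in all 4 lists. Peaks of the knockout PA list alone stood at 3.12% (2.40 to 4.05%), an interval that overlaps that of the members. The X chromosome was not the only one to differ. Chromosome 9 went the other way, with 4.08% (3.11 to 5.34%) of members against 5.98% (5.51 to 6.50%) of other knockout PA peaks. Of the 237 knockout PA peaks on the X chromosome, 21.1% (16.4 to 26.7%) met the rule. The inputs of these genes were also high in the knockout: the median CPM of the member genes on X was 18.9 in knockout PA and 8.27 in wild-type PA, with a median log2 ratio of 0.84, and 25.0 and 9.94 in RO, with a ratio of 1.08. In RO 24 of 44 were at least 2-fold higher and 1 lower. Other X genes with a knockout PA peak had 44 and 5 of 122, and autosomal member genes 163 and 82 of 1057. In PA the numbers were 17 and 3 of 42, 33 and 6 of 122, and 155 and 83 of 1058. Over all genes kept, 23.0% were higher in RO and 23.8% in PA. Other genes on X with a knockout PA peak had medians of 0.43 in PA and 0.58 in RO, so higher input on X was seen beyond the members. Its part in the X share was not tested.

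Among X genes, 2 were picked after their values were seen. Tro had the highest knockout PA fold of all members, 136, with 18.8 in knockout RO, and CPM of 11.6 in knockout PA, 4.52 in wild-type PA, 14.0 in knockout RO and 5.65 in wild-type RO. Usp26, a deubiquitinase of the testis, had folds of 10.9 and 53.6 and CPM of 51.3, 7.93, 82.3 and 10.6.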

How the data were processed

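The authors deposited gene counts of the 4 input libraries (whole numbers, not normalized) and 4 peak lists. Per the file headers, a peak comes with exon blocks, a feature class, a gene, a fold (a ratio of immunoprecipitated over input library) and log10 values of a p-value and of a false discovery rate; the deposited score column holds the p-value itself. The submitters' processing notes name cutadapt 2.5, HISAT2 2.1.0, HOMER 4.10.4 and mm10, with no roles; the peak caller and counting tool are not given in the sources used here. Lists were assigned by their names.

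Overlaps were computed on exon blocks (Python 3.11.15), checked against bedtools 2.31.1 on simulated intervals. Counts were scaled by TMM (edgeR 4.0.16, R 4.3.3; factors 1.09, 1.079, 0.8923 and 0.9527 for knockout PA and RO and wild-type PA and RO) into CPM and log2 ratios with a prior count of 2. Genes under 1 CPM in both libraries were left out. On simulated data, 199 of 200 changed genes among 15160 were recovered for PA and 200 for RO. The 95% intervals are exact binomial for input ratios and Wilson for shares.

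The members, gene lists and rules were chosen with earlier results of these data known. Named are the members with the highest lower fold (10, then 6 in steady genes), the input ratios at both ends, the genes with most members, the widest peaks, those at the edges of the rule and 2 per gene group. The alternatives tried were overlap, significance, fold, strand and distance rules, scaling by DESeq2 1.42.0 size factors or total counts, the CPM filter, the prior count and the fold threshold.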

Additional observations from a re-analysis of the deposited data

Results flagged for a closer look

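The input of Arrdc4, whose 3′ peak is among the strongest in both knockout lists, differed between the fractions in the direction of its genotype ratio: the log2 ratio of knockout over wild type was -1.0 in PA and 1.45 in RO, from 45 against 100 counts and 107 against 40 counts. The difference was not tested, since each group has 1 library.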

How the results depend on the processing

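The number of peaks in both knockout lists only, 1225, lay between 830 and 1263 under the reciprocal overlap, false discovery rate, fold of at least 5, span, strand, 200 bp, merging and RO-side alternatives. It was 593 when genes with any wild-type peak were left out, and, with thresholds chosen after seeing the data, 361 at a fold of at least 10 in both lists and 402 at a log10 false discovery rate of -5 or below. The median width was 239 bp by genomic span. The median input ratio of member genes was 0.38 in PA and 0.28 in RO by total counts and 0.15 in PA for genes without a wild-type peak. The number of member genes higher in the knockout was 114 of 547 in PA and 111 of 548 in RO for genes without a wild-type peak. Of the 1101 and 1103 member genes kept, it was 306 and 316 at 1.5-fold, and 53 and 52 at 4-fold. These settings select fewer genes or shift the threshold by construction. The share over all genes was not computed at 1.5-fold or 4-fold, so these counts have no background to be read against. Class shares moved by less than their intervals. The RO share of member genes with higher input, 17.1% against 23.0% of all genes at 1 CPM, was 14.3% against 11.8% at 10 CPM, so its side of the background changed. The wild-type pair, 364 peaks, came to 161 without genes that hold a knockout peak, 141 at a fold of at least 10 and 89 at a log10 false discovery rate of -5 or below. In all, 53 of 69 recomputed values stayed near their main value and 16 moved. No paired analysis was possible because each group has 1 library and shares only 1 replicate number with another; a fit of genotype with fraction as a block was not run. Depth limits the weakly counted genes: 39 member genes had 3 counts or fewer in wild-type PA and 37 in wild-type RO.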
